A study of Mus musculus with 16 samples.

Results

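This section describes 10 genes of phosphate transport, Klotho and vitamin D in the kidneys of mice without Aqp11, through the 18 array probe sets annotated to them among 45101 on the array. The genes were the phosphate transporter genes Slc34a1, Slc34a3, Slc20a1 and Slc20a2, the hormone receptor genes Kl, Fgfr1, Pth1r and Vdr, and the vitamin D enzyme genes Cyp27b1 and Cyp24a1. A probe set is a group of short probes that together report 1 transcript region. Of the 18, 17 were bright enough to be tested and 1, for Slc20a1, was not.

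The proximal tubule of the nephron takes filtered phosphate back up through sodium-coupled transporters in its brush border, and this step sets how much phosphate leaves in the urine. The bone hormone FGF23 acts through an FGF receptor joined by Klotho, and parathyroid hormone through its own receptor. Both lower phosphate uptake by withdrawing transporters from the membrane. FGF23 also lowers the synthesis of active vitamin D, which the proximal tubule makes with Cyp27b1 and which Cyp24a1 breaks down, and active vitamin D acts through the nuclear receptor Vdr. Klotho is abundant in the kidney, most of all in the distal tubule.

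Kidney RNA came from 7 Aqp11+/+ pups and 9 Aqp11-/- pups, all 7 days old, each on its own array. They were littermates of Aqp11+/- matings, of an allele made on 129/SvEvBrd and moved onto C57/BL6, with the strain given as C57BL/6J. There were 3 males and 4 females among the wild-type pups, and 5 males and 4 females among those without Aqp11. The labels name no tissue-restricted driver and no treatment, and whole-kidney RNA was used, from organs still maturing at this age. Aqp11 encodes a water channel of intracellular membranes, and the comparison asks what changes in the kidney when it is missing.

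Values are log2 of the array signal after quantile normalization, with low signals raised to a floor of 2.78. Aqp11 itself lay between 7.72 and 8.11 in wild type and between 2.78 and 3.69 in knockout, at the floor on 7 of 9 knockout arrays. The kidney markers Umod, Slc12a1, Lrp2, Aqp2 and Nphs1 were well above the floor on every array. Deposited array brightness varied 2.12-fold, and the 8 brighter arrays (4 wild type, 4 knockout) and 8 dimmer arrays (3 wild type, 5 knockout) are also given apart below for the called genes and the vitamin D genes. Proximal tubule marker genes fell for 18 of 22 and rose for none, and macrophage markers rose for 13 of 13. Among all tested probe sets, 5.82% fell and 6.78% rose. The marker and pathway lists count genes, each by its brightest tested probe set. A fit of 1 probe set per gene, the brightest, called 2215 of 12499 (17.7%), 1044 as lower and 1171 as higher. The mean log2 signal of the proximal tubule list was 10.1 to 10.4 in wild type and 9.01 to 9.70 in knockout, and that of the macrophage list 6.77 to 7.67 and 8.49 to 9.15. Because whole kidneys were measured, fewer cells of a type and less RNA per cell cannot be told apart.

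Among the 17 tested probe sets, 4 fell and 1 rose in the knockout kidney. Slc34a3, Slc34a1, Kl and Pth1r were lower, and Slc20a1 was higher (limma, adjusted p below 0.05 over all 23178 probe sets tested). Of all tested probe sets, 12.6% passed that threshold, 5.82% as lower and 6.78% as higher. The groups did not overlap for 4 of the 17, against 4.03% of all tested probe sets. The median log2 change of the 17 was -0.29, and that of all tested probe sets was -0.00060. The plot of every probe set by animal shows the spread that each of these calls rests on.

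**Figure D1:**
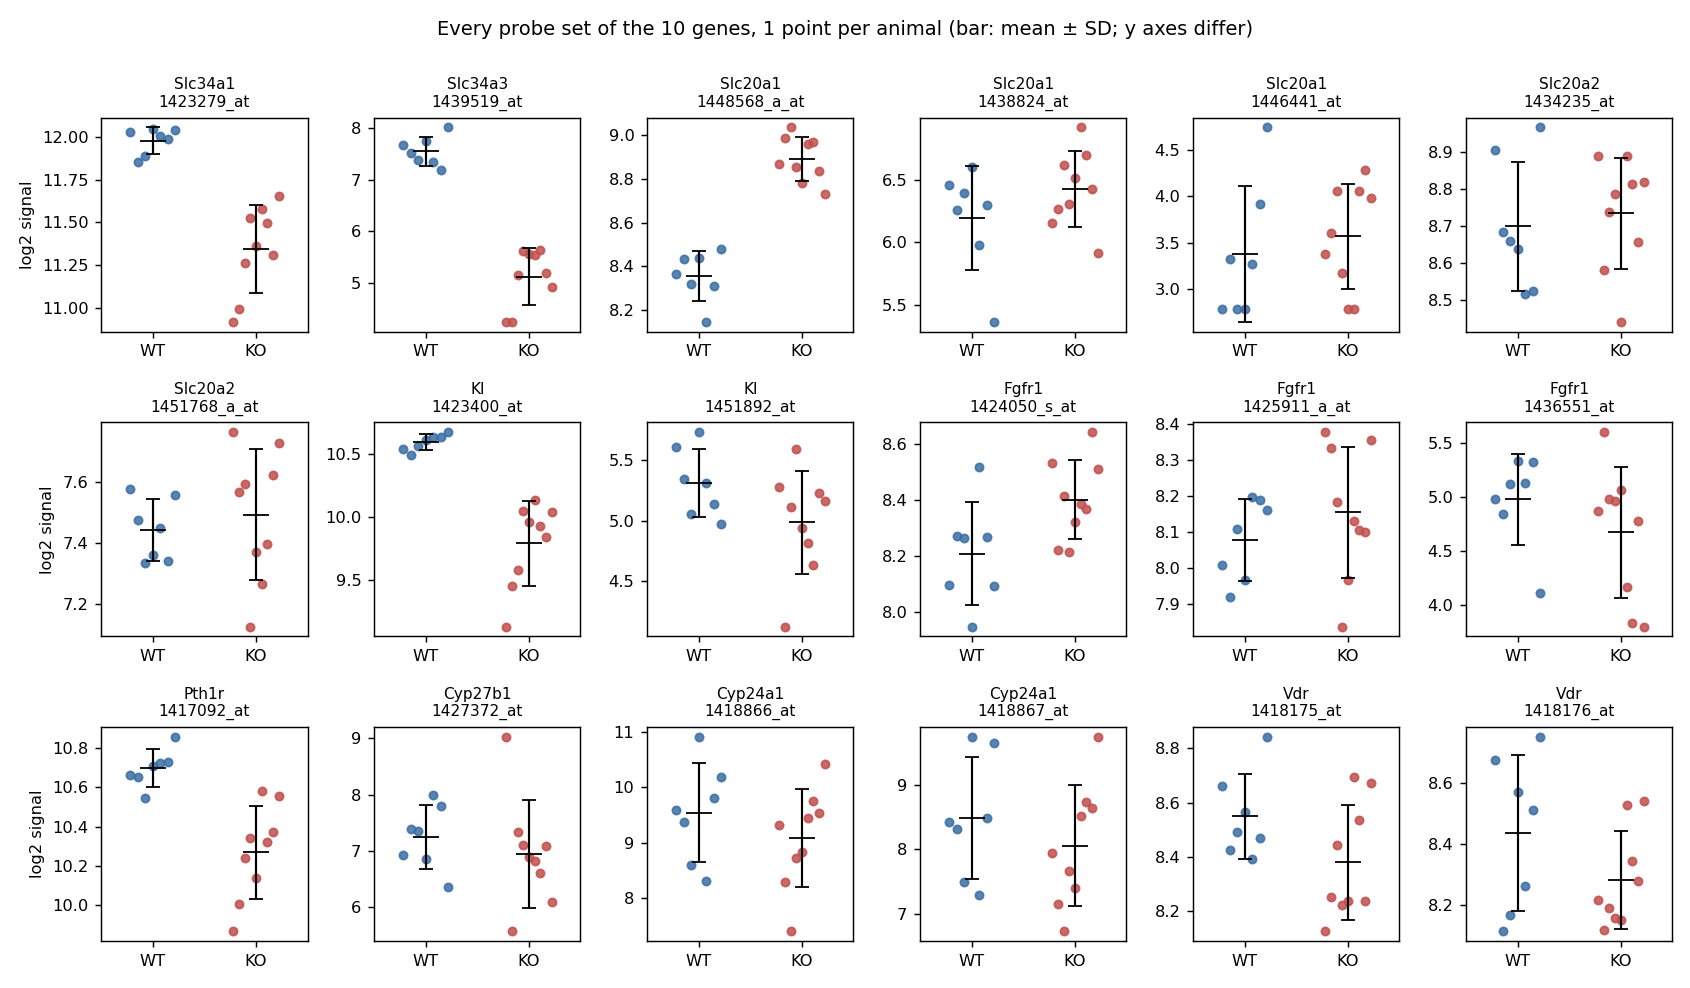
Log2 signal (y axis, a separate scale in each panel) of all 18 probe sets of the 10 genes in 7 wild-type (WT) and 9 Aqp11 knockout (KO) kidneys, 1 point per animal, with mean and SD. In Slc34a1, Slc34a3, Slc20a1 (1448568_a_at) and Kl (1423400_at) the groups do not overlap. Cyp27b1 and Cyp24a1 overlap across a wide range in both genotypes.

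Slc34a1 encodes NaPi-IIa, the main phosphate transporter of the mouse proximal tubule brush border. Its log2 signal (1423279_at) had a lowest, median and highest value of 11.86, 12.01 and 12.05 in wild type and of 10.91, 11.36 and 11.65 in knockout. Every knockout kidney was below every wild-type kidney, and the knockout animals spread more widely, 1.67-fold from lowest to highest against 1.14-fold. The log2 difference, knockout minus wild type, was -0.64 (SE 0.09, 95% interval -0.83 to -0.45), a 1.56-fold fall (limma adjusted p = 5.09e-05). The exact permutation p was 8.74e-05 (two-sided), the smallest that 9 against 7 animals can give. The fall was -0.76 among the brighter arrays and -0.55 among the dimmer ones.

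Slc34a3 encodes NaPi-IIc, a second sodium-phosphate cotransporter of the same membrane, which is prominent in young animals. Its log2 signal (1439519_at) was 7.18, 7.51 and 8.01 in wild type (lowest, median, highest) and 4.25, 5.19 and 5.64 in knockout. The genotypes were far apart, and knockout pups 1-2 and 2-3 were lowest. The log2 difference was -2.42 (SE 0.21, 95% interval -2.85 to -1.99), a 5.36-fold fall (limma adjusted p = 7.72e-08, exact permutation p = 8.74e-05). It ranked 6 among all falls by size. No animal was at the floor, but the knockout signals were dim, between the 36.3 and 51.9 percentiles of their own arrays. Among the brighter arrays the log2 difference was -2.66 and among the dimmer ones -2.22.

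The start-site regions of this pair are shown because these transporter genes of the same membrane fell by unequal amounts. The sequences are RefSeq's, build GRCm38.p6, and run 5′ to 3′ on the strand of the gene up to the base before the start site. Slc34a3 is at chr2:25234235-25234484 on the minus strand and Slc34a1 at chr13:55399398-55399647 on the plus strand. Capitals mark the motifs found in a search of both strands. The search took AGGTCA and also the variant AGTTCA as core letters bound by nuclear receptors such as Vdr. It further took GTTAAT as part of the site of the kidney factor HNF1, and CACGTG as the E-box. The remaining motifs were TGAGTCA as the site of AP-1, TGACG as the core of the cAMP element, and TATAAA as the TATA box.
Slc34a3: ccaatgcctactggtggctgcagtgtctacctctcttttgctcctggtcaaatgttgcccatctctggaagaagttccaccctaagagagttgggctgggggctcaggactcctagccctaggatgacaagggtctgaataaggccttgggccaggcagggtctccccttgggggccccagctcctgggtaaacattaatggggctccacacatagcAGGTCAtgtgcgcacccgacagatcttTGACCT
Slc34a1: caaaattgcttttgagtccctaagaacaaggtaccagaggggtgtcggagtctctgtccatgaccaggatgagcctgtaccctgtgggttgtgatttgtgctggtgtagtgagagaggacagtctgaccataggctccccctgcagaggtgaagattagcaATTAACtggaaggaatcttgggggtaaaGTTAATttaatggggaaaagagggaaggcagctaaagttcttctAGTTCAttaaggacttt
Slc34a3 held AGGTCA at 33 to 28 bases before the start on its own strand, and again at 6 to 1 on the other strand, where it reads TGACCT. Slc34a1 held GTTAAT at 61 to 56 and, on the other strand, at 89 to 84, and AGTTCA at 17 to 12. Of 32851 such 250-base regions in the table, 14% held AGGTCA, 11.8% held AGTTCA and 6.43% held GTTAAT, so these matches are descriptions of the letters and not of binding.

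Of the widely expressed phosphate transporters, Slc20a1 rose and Slc20a2 did not pass the test. Slc20a1 encodes PiT-1, a sodium-phosphate cotransporter found in most tissues. Its brightest probe set (1448568_a_at) gave log2 signals of 8.15, 8.37 and 8.48 in wild type and 8.73, 8.87 and 9.04 in knockout. All knockout kidneys were above all wild-type kidneys, and the spread within each genotype was small. The log2 difference was 0.54 (SE 0.06, 95% interval 0.40 to 0.67), a 1.45-fold rise (limma adjusted p = 7.85e-06, exact permutation p = 8.74e-05). It was 0.48 among the brighter arrays and 0.59 among the dimmer ones, but without normalization between arrays the call was lost, at 0.55 (limma adjusted p = 0.162).

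The other probe sets of Slc20a1 did not carry that call. Probe set 1438824_at gave 5.37, 6.30 and 6.60 in wild type and 5.92, 6.42 and 6.91 in knockout, a log2 difference of 0.23 (limma adjusted p = 0.445). The groups overlapped across most of their range. Probe set 1446441_at was too dim to be tested, at the floor on 3 wild-type and 2 knockout arrays, with a difference of 0.19 (exact permutation p = 0.555). Probe sets of 1 gene read different transcript regions, so the rise rests on 1 of 3.

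The region before the first listed start of Slc20a1, at chr2:129198523-129198772 on the plus strand, is shown as that of the only member that rose, with the same motifs in capitals.
Slc20a1: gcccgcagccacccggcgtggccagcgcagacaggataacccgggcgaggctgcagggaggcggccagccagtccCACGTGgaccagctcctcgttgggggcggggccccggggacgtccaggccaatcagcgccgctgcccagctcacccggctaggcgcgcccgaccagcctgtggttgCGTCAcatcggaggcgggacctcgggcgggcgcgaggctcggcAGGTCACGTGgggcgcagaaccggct
It held CACGTG at 175 to 170 and at 22 to 17 bases before the start, AGGTCA at 26 to 21, and TGACG on the other strand at 69 to 65. The AGGTCA match and the second CACGTG share bases. Of all regions in the table, 6.02% held CACGTG and 17.8% held TGACG. The region before another listed start of Slc20a1, at chr2:129206846-129207095, held no CACGTG. There AGGTCA was at 75 to 70 and TGACG at 161 to 157 and at 121 to 117, all on the other strand.

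Slc20a2, which encodes PiT-2, the partner transporter of most tissues, differed little. Probe set 1434235_at gave 8.52, 8.66 and 8.97 in wild type and 8.44, 8.79 and 8.89 in knockout, with a log2 difference of 0.04 (95% interval -0.14 to 0.21, limma adjusted p = 0.852). Probe set 1451768_a_at gave 7.33, 7.45 and 7.58 in wild type and 7.12, 7.57 and 7.76 in knockout, with a difference of 0.05 (95% interval -0.14 to 0.25, limma adjusted p = 0.807). Both pairs of groups overlapped.

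Kl, the coreceptor that gives an FGF receptor its affinity for FGF23, fell in every knockout kidney. The bright probe set (1423400_at) gave 10.49, 10.61 and 10.67 in wild type and 9.13, 9.93 and 10.13 in knockout. The wild-type animals were tightly grouped, 1.14-fold from lowest to highest, and the knockout animals spread 2.00-fold, with 1-2, 2-3 and 2-4 lowest. Knockout minus wild type was -0.80 in log2 (SE 0.11, 95% interval -1.04 to -0.56), a 1.74-fold fall (limma adjusted p = 5.33e-05, exact permutation p = 8.74e-05). It was -0.90 among the brighter arrays and -0.74 among the dimmer ones. A second, dimmer probe set (1451892_at) gave 4.97, 5.31 and 5.73 in wild type and 4.12, 5.12 and 5.59 in knockout. Its difference of -0.32 did not pass (95% interval -0.72 to 0.08, limma adjusted p = 0.334), and its groups overlapped.

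The region before the start of Kl, at chr5:150952357-150952606 on the plus strand, is shown because Kl moved with Slc34a1 from animal to animal, as described below. It held none of the motifs searched, and 66.8% of its bases were G or C, against a median of 52.4% over the table.
Kl: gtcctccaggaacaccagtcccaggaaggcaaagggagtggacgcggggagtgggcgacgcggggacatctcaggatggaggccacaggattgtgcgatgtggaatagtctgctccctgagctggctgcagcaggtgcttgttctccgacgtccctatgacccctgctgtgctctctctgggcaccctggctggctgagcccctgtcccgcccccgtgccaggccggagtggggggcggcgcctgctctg

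Fgfr1, an FGF receptor that Klotho can join, was not called by any of its 3 probe sets. The brightest (1424050_s_at) gave 7.95, 8.26 and 8.52 in wild type and 8.22, 8.39 and 8.64 in knockout, a log2 difference of 0.19 (95% interval 0.02 to 0.37, limma adjusted p = 0.154). All 9 knockout animals were above the wild-type mean, but 7 of them lay within the wild-type range. Probe set 1425911_a_at differed by 0.08 (limma adjusted p = 0.652), with 7.92 to 8.20 in wild type and 7.84 to 8.38 in knockout. Probe set 1436551_at was dim and differed by -0.31 (limma adjusted p = 0.535), with 4.11 to 5.34 and 3.79 to 5.61.

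Pth1r, the receptor of parathyroid hormone, had the smallest log2 difference of the 4 called falls. Pth1r was not compared with Slc34a1, Slc34a3 or Kl within arrays. Its single probe set (1417092_at) gave 10.55, 10.71 and 10.86 in wild type and 9.87, 10.32 and 10.58 in knockout. The groups overlapped, and 7 of the 9 knockout kidneys were below every wild-type kidney. The log2 difference was -0.43 (SE 0.09, 95% interval -0.61 to -0.24), a 1.34-fold fall (limma adjusted p = 0.00212, exact permutation p = 0.000787). It was -0.55 among the brighter arrays and -0.36 among the dimmer ones. The call was lost without normalization between arrays, at -0.42 (limma adjusted p = 0.235), and among males alone, at -0.32 (limma adjusted p = 0.0822).

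**Figure D2:**
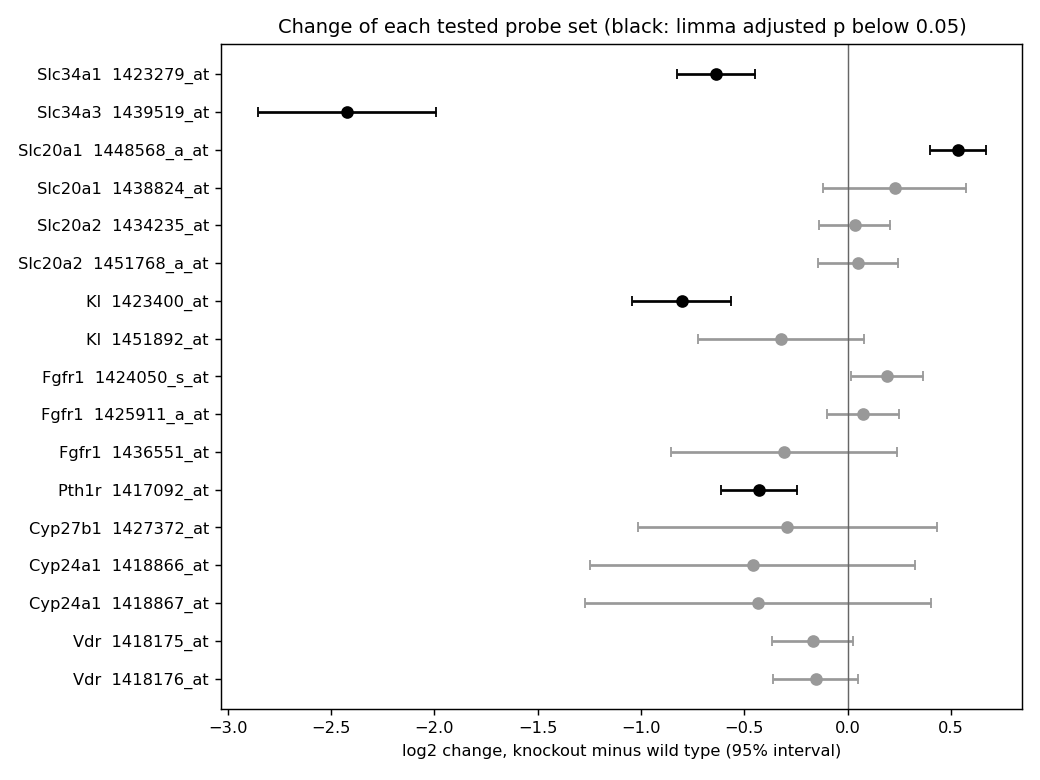
Log2 change, knockout minus wild type, with its 95% interval from limma (x axis) for the 17 tested probe sets (rows), black where the adjusted p is below 0.05. Slc34a3 lies farthest from 0 at -2.42, and Slc20a1 1448568_a_at is the one call to the right, at 0.54. The intervals of Cyp27b1 and Cyp24a1 are the broadest.

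The vitamin D genes did not pass the test, and the enzyme genes varied more between pups than nearly all other tested genes. Cyp27b1, which makes active vitamin D, gave 6.35, 7.35 and 8.0 in wild type and 5.57, 6.90 and 9.03 in knockout (1427372_at). Knockout pup 1-2 was highest and knockout pup 2-3 lowest, so the knockout range enclosed the wild-type range. Its log2 difference was -0.29 (95% interval -1.02 to 0.43, limma adjusted p = 0.683). The highest animal was 3.13-fold above the lowest in wild type and 11.0-fold above it in knockout. The knockout spread rested on pup 1-2, without which it was 3.38-fold and the difference between genotypes -0.55 (limma adjusted p = 0.184). With each array left out in turn the difference was -0.55 to -0.12, and it was 0.018 among the brighter arrays and -0.60 among the dimmer ones.

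Cyp24a1, which degrades active vitamin D and is a classic target of Vdr, gave 8.31, 9.60 and 10.91 in wild type and 7.41, 9.33 and 10.42 in knockout (1418866_at). Its difference was -0.46 (95% interval -1.25 to 0.33, limma adjusted p = 0.515), and a second probe set (1418867_at) differed by -0.43 (limma adjusted p = 0.575). With each array left out in turn the first was -0.67 (without wild-type array 4-1) to -0.23 (without wild-type array 3-1). Without knockout array 2-4 it was -0.25. Among the brighter arrays the probe sets differed by -0.83 and -0.96, and among the dimmer ones by -0.12 and -0.0086, and none of these passed. The highest animal was 6.08-fold above the lowest in wild type and 8.09-fold in knockout. Both probe sets ordered the animals nearly alike, with r = 0.97 in wild type and 0.96 in knockout (exact permutation adjusted p = 0.00635 and 0.00119 over 16 relations). The residual SD between animals exceeded that of 99.4% of tested probe sets for Cyp24a1 (1418866_at), and that of 98.8% for Cyp27b1.

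Vdr, the vitamin D receptor, gave 8.39, 8.49 and 8.84 in wild type and 8.12, 8.25 and 8.70 in knockout (1418175_at). In the knockout, 5 of 9 animals were below all wild-type animals, and the other animals overlapped. The log2 difference was -0.17 (95% interval -0.36 to 0.03, limma adjusted p = 0.288). A second probe set (1418176_at) differed by -0.15 (limma adjusted p = 0.376). Over the brighter arrays alone the first passed the threshold, at -0.33 (limma adjusted p = 0.0460), and over the dimmer ones it was -0.051 (adjusted p = 0.867).

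The members were next compared within each array, where a difference between a pair of genes shows unequal change and not that either stayed the same. Of 8 such comparisons, 6 passed an exact permutation test (two-sided, Benjamini-Hochberg over the 8). Females alone and the brighter arrays alone hold 4 animals of each genotype, where the smallest unadjusted p is 0.0286. In both subsets Slc34a3 minus Slc34a1, Slc34a3 minus the proximal tubule mean and Slc20a1 minus Slc20a2 kept their direction at an adjusted p of 0.0571. Slc34a3 fell further than Slc34a1, by -1.79 in log2. The within-array difference between them was -4.81 to -4.03 in wild type and -6.74 to -5.81 in knockout, without overlap (adjusted p = 0.000233). Slc20a1 rose relative to Slc20a2 by 0.50 (adjusted p = 0.000233). That within-array difference spanned -0.54 to -0.20 in wild-type kidneys and -0.09 to 0.40 in knockout kidneys, again without overlap.

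Slc34a3, Pth1r and Slc34a1 were each set against the mean of 22 proximal tubule markers, which fell by 0.77 in log2 (-0.77). Slc34a3 fell further than the mean by -1.65, with no overlap between genotypes (adjusted p = 0.000233). Pth1r fell less than the mean, by 0.34 (adjusted p = 0.00629), with overlap. That call was lost in females (0.21, adjusted p = 0.267), in males (0.48, adjusted p = 0.0714) and in the brighter arrays (0.29, adjusted p = 0.114). Slc34a1 differed from the mean by 0.13, which did not pass (adjusted p = 0.0702), and it passed without knockout array 1-2, at 0.17 (adjusted p = 0.00456). Blocking on the first number of the sample names made it a call too (0.14, adjusted p = 0.0139), as did brightness as a block (0.11, adjusted p = 0.0473) and the dimmer arrays alone (0.13, adjusted p = 0.0286). How far the change in the markers accounts for that in the members was not tested.

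Slc5a2, the glucose transporter SGLT2 of the early proximal tubule, fell by 2.07 (-2.07), a size near that of Slc34a3. The within-array difference of Slc34a3 from Slc5a2 was -3.16 to -2.61 in wild type and -3.94 to -2.71 in knockout. It changed by -0.35 (adjusted p = 0.0450), but turned to 0.035 when no floor was used and 16 was added to each signal (adjusted p = 0.835). The call was also lost without wild-type array 2-1, 2-2, 3-1, 4-1 or 5-1, or without knockout array 2-3, 3-2, 3-4, 4-3 or 5-2, at -0.36 to -0.25 (adjusted p 0.0569 to 0.0962).

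Kl fell further than the mean of 12 distal tubule and thick ascending limb markers, which changed by -0.34. Of these, 6 fell and none rose, where 5.82% of all tested probe sets fell, and 1044 of 12499 with 1 probe set per gene. The within-array difference was 0.97 to 1.2 in wild type and -0.063 to 0.97 in knockout, and changed by -0.47 (adjusted p = 0.000874). It was -0.27 in males (adjusted p = 0.0714), -0.68 in females and -0.57 in the brighter arrays (adjusted p = 0.0571 in each), none of which passed, and whether the sexes differ in it was not tested. The groups did not overlap, but the lowest wild-type and the highest knockout value differed only in the third decimal. The distal marker mean itself was 9.42 to 9.64 in wild type and 8.97 to 9.33 in knockout. Its genes changed unequally, from -1.91 (Egf) to 0.22 (Umod) with a median of -0.22, so Egf fell by more than Kl. Kl changed by -0.80, near the -0.77 of the mean of the 22 proximal tubule markers. Kl was not compared with that proximal mean within arrays. Cyp24a1 minus Cyp27b1 differed between genotypes by -0.17 (adjusted p = 0.802), with overlap across nearly the whole range.

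**Figure D3:**
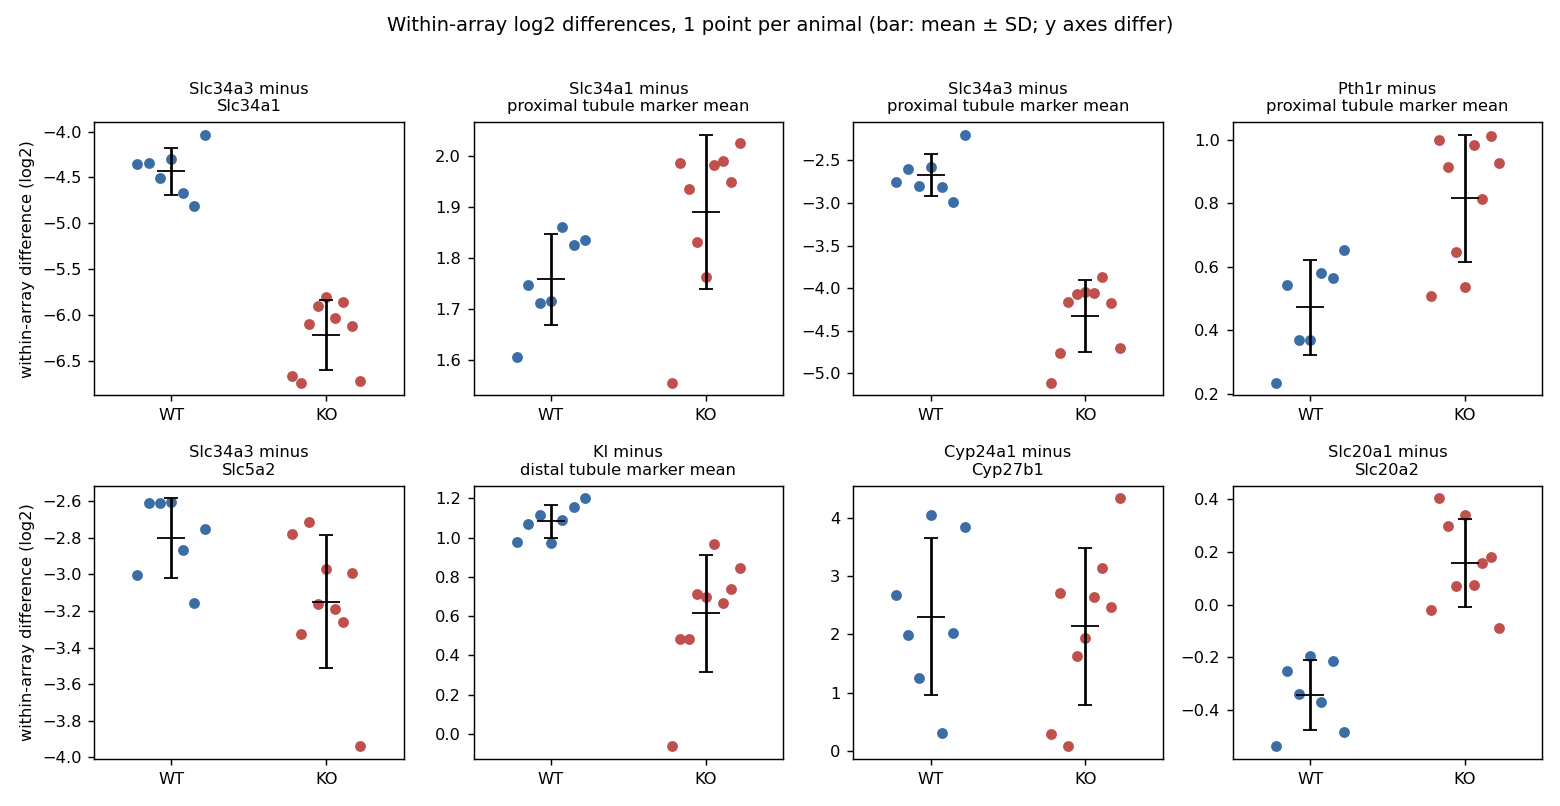
Within-array log2 differences (y axis, a separate scale in each panel) for the 8 comparisons, 1 point per animal, with mean and SD, in 7 wild-type (WT) and 9 knockout (KO) kidneys. The groups are apart for Slc34a3 minus Slc34a1, Slc34a3 minus the proximal tubule marker mean and Slc20a1 minus Slc20a2, and touch for Kl minus the distal tubule marker mean.

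Within the knockout group, the kidneys that were low in Slc34a1 were low in Kl and Pth1r too. Slc34a1 and Kl had r = 0.95 and rho = 0.93 over 9 knockout animals (exact permutation adjusted p = 0.000970 and 0.00400 over the 16 relations), and r = 0.83 without 1-2 and 2-3, the arrays farthest from the median of Slc34a1. Slc34a1 and Pth1r had r = 0.92 and rho = 0.85 (exact permutation adjusted p = 0.00350 and 0.0243), and r = 0.75 without them. Those 2 animals carried the lowest signals of Slc34a1, Slc34a3, Kl and Pth1r.

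The relation of Slc34a1 with Slc34a3 rested on that pair of animals. Its r was 0.79 over 9 knockout animals (exact permutation adjusted p = 0.0305) with rho 0.53 (adjusted p = 0.236), and 0.05 without 1-2 and 2-3. The relation of Slc34a3 with Kl fell likewise, from r = 0.84 (exact permutation adjusted p = 0.0212, rho 0.63, adjusted p = 0.201) to 0.36. In the 7 wild-type animals none of the 3 relations among Slc34a1, Slc34a3 and Kl passed, and neither did that of Slc34a1 with Pth1r. Wild-type r was 0.45 for Slc34a1 with Slc34a3, 0.69 for Slc34a1 with Kl, 0.17 for Slc34a3 with Kl and 0.66 for Slc34a1 with Pth1r (exact permutation adjusted p = 0.353, 0.157, 0.768 and 0.169). Without the 2 arrays farthest from the median of the first gene they were 0.91, -0.12, -0.12 and 0.16. Whether the relations differ between genotypes was not tested, and the brighter and the dimmer arrays of 1 genotype were too few for a value of their own.

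Havcr1, the kidney injury marker KIM-1, ran the other way. It lay between 8.11 and 9.64 in knockout and between the floor and 4.30 in wild type, and knockout pup 1-2 was highest. Over the knockout animals Kl and Havcr1 had r = -0.87 and rho = -0.70 (exact permutation adjusted p = 0.0145 and 0.138), and r = -0.56 without 1-2 and 2-3. Slc34a3 and Havcr1 had r = -0.74 and rho = -0.58 (exact permutation adjusted p = 0.0422 and 0.216), and r = -0.26 without them. In wild type 4 of 7 arrays were at the floor for Havcr1, so no relation is given there. Pup 1-2 also had the highest macrophage marker mean of all animals, 9.15, and the highest injured tubule marker mean, 9.00. The part of these markers in the members' levels was not tested.

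Cyp24a1 and Cyp27b1 were set against each other after their spread had been seen. Their r was -0.67 with rho -0.71 in wild type (exact permutation adjusted p = 0.157 and 0.201) and -0.07 with rho -0.35 in knockout (adjusted p = 0.861 and 0.382). Knockout pup 1-2 paired the highest Cyp27b1 of all animals, 9.03, with a Cyp24a1 signal of 9.33, the knockout median.

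**Figure D4:**
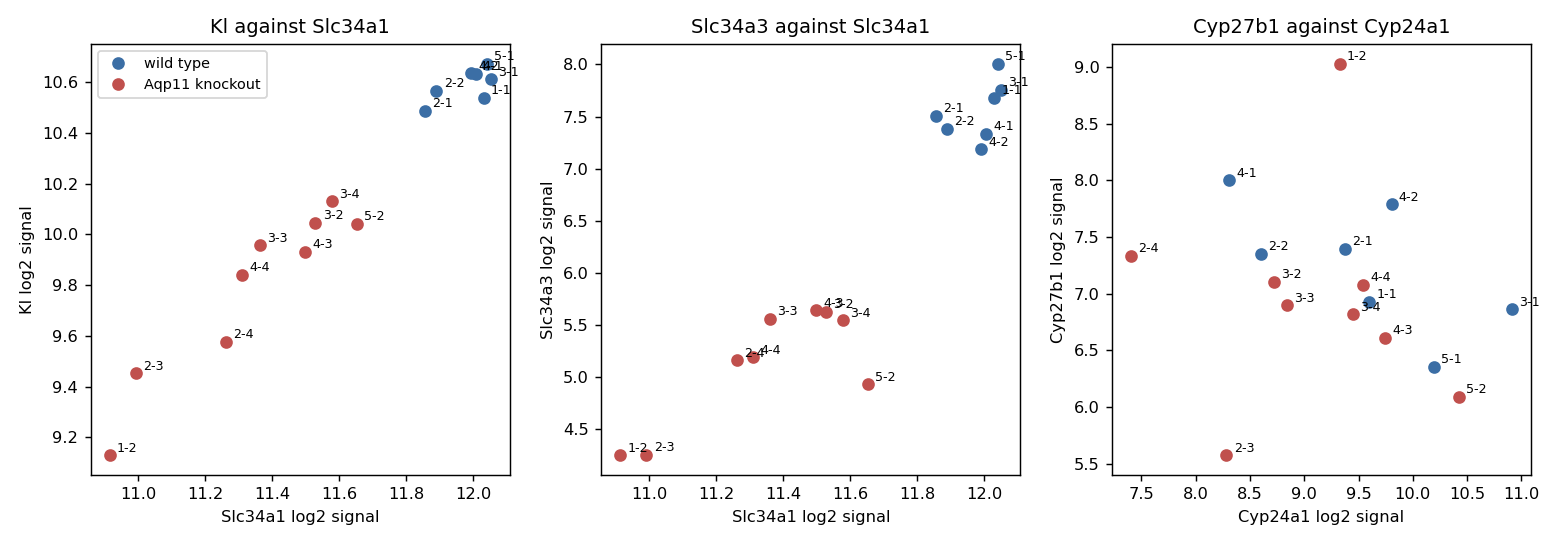
Log2 signals of 2 members against each other, 1 point per animal labelled by its array, for 7 wild-type and 9 knockout kidneys: Kl against Slc34a1, Slc34a3 against Slc34a1, and Cyp27b1 against Cyp24a1. Knockout pups 1-2 and 2-3 lie at the low end of the first and second panels, and in the third the genotypes overlap.

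The genes whose signals followed each called member most closely over the 16 arrays, after the mean of each genotype was removed, are given as a description. For Slc34a1 they were Cubn, Slc5a2 and Lrpap1 (r = 0.94 each). For Kl they were Slc22a12 (0.96), Slc34a1 (0.93) and Slc5a2 (0.92). For Pth1r they were Lrpap1 (0.93), Pygm and Sparc (0.92 each). For Slc34a3 they were Itgb6, Iftap and Dap3 (0.88 each), and for Slc20a1 Grwd1 (0.89), Timm10 (0.82) and Rrp9 (0.81). All points share the arrays and their brightness.

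Genes listed as partners of the phosphate transporters or as other genes of phosphate transport moved mostly down. Of 12 tested, 8 fell and 2 rose, with a median log2 change of -0.22, where 5.82% of all tested probe sets fell. With 1 probe set per gene, 1044 of 12499 fell and 1171 rose. Alpl, the alkaline phosphatase that frees phosphate from esters, fell by 1.03 (-1.03, limma adjusted p = 6.22e-05). Slc37a4, which carries glucose-6-phosphate into the endoplasmic reticulum, fell by 0.79 (-0.79, adjusted p = 0.000257), and Slc9a3, the brush border sodium-proton exchanger, by 0.60 (-0.60, adjusted p = 4.93e-05). Slc34a2, the phosphate cotransporter of intestine and lung, rose by 0.71 (limma adjusted p = 0.000470), from 6.44 to 6.91 in wild type to 7.00 to 8.05 in knockout without overlap. The other rise was that of Ank (0.47, limma adjusted p = 0.00335), the pyrophosphate transport gene, which is named after its value was seen.

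Genes of vitamin D uptake fell as well. Filtered vitamin D, bound to its carrier protein, enters the proximal tubule through the endocytic receptors megalin and cubilin. Of 8 tested genes of vitamin D supply, 5 fell and 1 rose, where 5.82% of all tested probe sets fell and 6.78% rose. With 1 probe set per gene, 1044 of 12499 fell and 1171 rose. The median log2 change of the 8 was -0.43. Cubn, which encodes cubilin, fell by 0.72 (-0.72, limma adjusted p = 0.000276), and its partner Amn by 0.59 (-0.59, adjusted p = 3.23e-05). The chaperone gene Lrpap1 fell by 0.46 (-0.46, adjusted p = 0.000102) and the endocytic adaptor gene Dab2 by 0.39 (-0.39, adjusted p = 0.000544). The groups did not overlap for any of these 4, as for 4.03% of all tested probe sets. The remaining calls were the megalin gene Lrp2, which fell by 0.62 (-0.62), and Cyp27a1, a vitamin D and bile acid hydroxylase, which rose by 0.43. Both are named outside the rule to complete the count. The mean of the 22 proximal tubule markers changed by -0.77, and its part in the falls of these genes was not tested.

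Of 10 tested genes of the FGF receptor and Klotho family, 1 fell and 1 rose, where 12.6% of all tested probe sets were called. With 1 probe set per gene the called share was 17.7%. Fgfr3 fell by 0.46 (-0.46, limma adjusted p = 0.0341), and Bace1, one of the proteases that can cleave Klotho from the membrane, rose by 0.22 (adjusted p = 0.0296). Fgfr2 (-0.22, adjusted p = 0.0939) and Fgf1 (-0.21, adjusted p = 0.201) did not pass. Fgf23 itself was too dim to be tested, as was Klb, the Klotho of other FGF hormones.

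Among the genes of parathyroid hormone signalling and the partners of Vdr, no gene was called, against 12.6% of all tested probe sets. With 1 probe set per gene the called share was 17.7%. Of 11 tested genes of parathyroid hormone signalling none passed limma's adjusted threshold, and 1 had an unadjusted p below 0.05. That gene was Adcy6, an adenylyl cyclase (-0.16, adjusted p = 0.0733), and the next by p were Prkar1a (0.08), Pde4d (-0.15) and Sgk1 (-0.07). None of the 9 tested partners of Vdr was called, and none had an unadjusted p below 0.05. Smarca4 (0.14, limma adjusted p = 0.266), Ncoa1 (0.06), Ncoa2 (-0.15) and Med1 (-0.07) were first by p. Of all tested probe sets, 20.7% had an unadjusted limma p below 0.0319 and 29.9% one below 0.0863, so the share below 0.05 lies between.

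The calcium-handling genes of the distal tubule, several of them known targets of active vitamin D, were not called either. Of 9 tested, 0 passed limma's adjusted threshold, against 12.6% of all tested probe sets and 17.7% with 1 probe set per gene. An unadjusted limma p below 0.05 was reached by 2 of the 9, where 20.7% of all tested probe sets had one below 0.0319. S100g, the calcium-binding protein calbindin-D9k, differed by -0.23 (limma adjusted p = 0.0730) and the tight junction gene Cldn16 by 0.16 (adjusted p = 0.195). Atp2b1, the plasma membrane calcium pump, differed by 0.11 (adjusted p = 0.289), and Trpv6, an epithelial calcium channel, by 0.39 (adjusted p = 0.367).

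Of 7 tested genes of secreted phosphate factors and their processing, 2 fell, against 5.82% of all tested probe sets. With 1 probe set per gene, 1044 of 12499 fell. Stc1, the stanniocalcin gene, fell by 0.40 (-0.40, limma adjusted p = 0.0414), and Galnt3, whose enzyme protects FGF23 from cleavage, by 0.36 (-0.36, adjusted p = 0.0442). Furin (0.47, adjusted p = 0.0861) and Sfrp4 (-0.28, adjusted p = 0.357) did not pass. The bone genes Phex, Dmp1 and Mepe were too dim to be tested, and Pth was at the floor on 14 of 16 arrays.

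**Figure D5:**
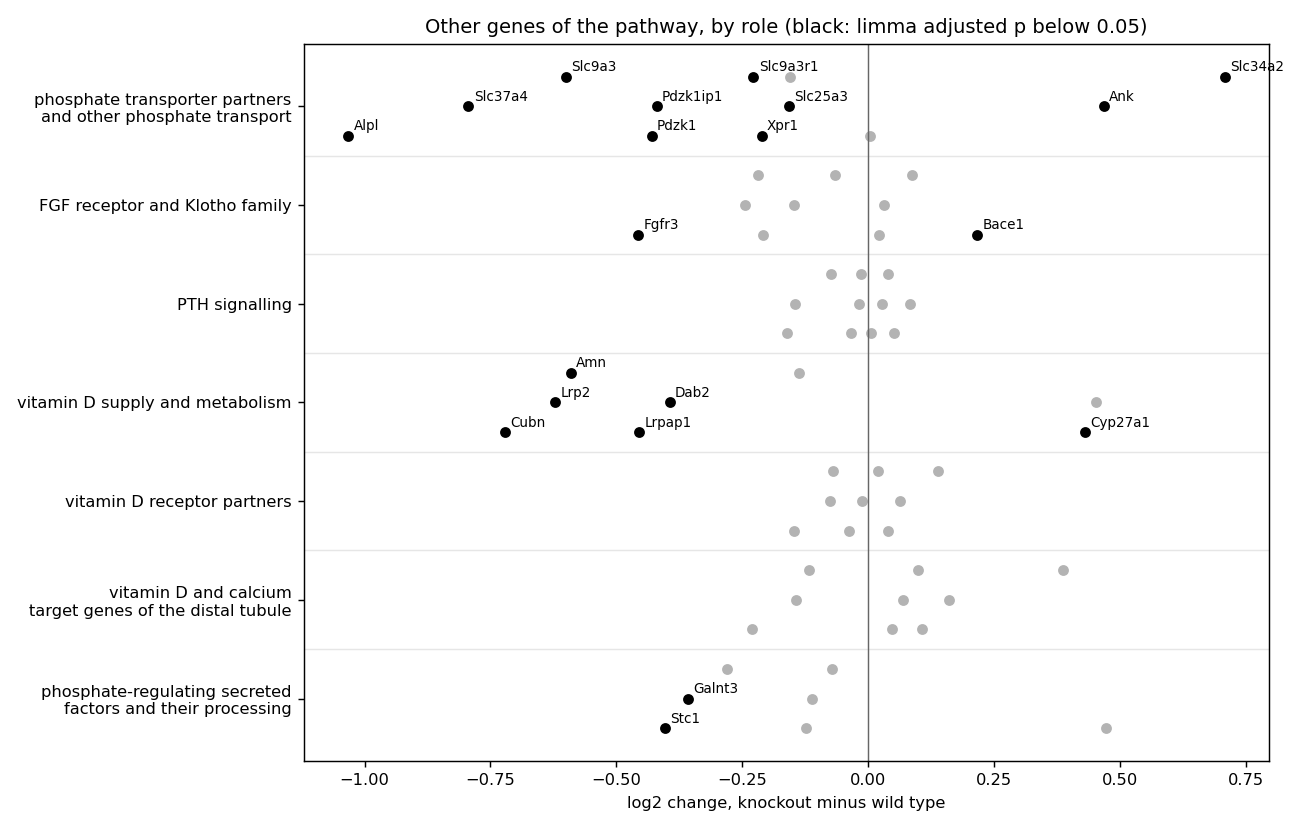
Log2 change, knockout minus wild type (x axis), of each tested gene of the 7 pathway lists (rows, points spread vertically for legibility), black and named where the limma adjusted p is below 0.05. Calls lie mostly in the phosphate transport and vitamin D supply lists, mostly left of 0, and 3 lists hold none.

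A knockout effect that differs between the sexes was not detected. The interaction of genotype with sex passed limma's adjusted threshold for none of 23178 probe sets, and for none of the 17 members at either level. An unadjusted p below 0.05 was reached by 2433 probe sets, a larger share than the 0.05 that chance gives on average. The test rested on 3 to 5 animals of each sex and genotype, which limits what it can detect. For Slc34a3 the log2 difference was -2.58 in females and -2.31 in males, and for Kl -0.95 and -0.68. Slc34a1 differed by -0.71 in females and -0.60 in males, and Slc20a1 by 0.53 and 0.55.

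Markers of the tissues beside the kidney were not called. For the adrenal gland, 2 of 9 genes were bright enough to be tested and neither was called, and Cyp17a1 was at the floor on all 16 arrays. Of fat, Fabp4 and Adipoq were tested and not called. Of bone, Sp7 was tested and not called, and Pth, of the parathyroid, was near the floor. Injured tubule markers rose for 6 of 7, and collecting duct markers fell for 3 and rose for 1 of 8. Fibroblast markers rose for 2 of 6, and podocyte markers fell for 2 of 5. Among all tested probe sets, 5.82% fell and 6.78% rose. With 1 probe set per gene, 1044 of 12499 fell and 1171 rose. What part the markers have in the members' levels was not tested.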

How the data were processed

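Each array held the RNA of the kidney of 1 pup, so replicates are separate animals. The deposited values are linear signal intensity, and the submitters' processing notes name GCOS 1.3 as the software. The sources used here do not state any scaling of one array to another. Since the trimmed mean (2% cut) varied 2.12-fold over the arrays, intensities were quantile normalized. Those below the 20th percentile of the whole table were raised to it (a signal of 6.89) before log2 was taken. Quantile normalization hides a change in total mRNA, and the floor understates changes of dim genes. Gene names come from GEO's annotation of the platform, in which 34958 probe sets name 1 gene. Those above the 40th percentile of their array on at least 7 of 16 arrays were tested.

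The genotype fit used limma 3.58.1 (R 4.3.3), by lmFit with genotype as its term and trended eBayes, with Benjamini-Hochberg adjustment over 23178 probe sets. Single values used exact permutation over animals, two-sided. The fit was tested on simulated data. A contrast takes the brightest probe set of each gene and, for a marker list, the mean of its tested genes. All probe sets of the members are described, and up to 4 genes of each pathway list, those with the smallest p. The plot of pathway genes names every called gene. The members and lists were chosen with earlier results of these data known. The 38 alternatives covered scaling, floor, filter, unit tested, terms, variance model and arrays left out. Promoter sequences came from the RefSeq table of build GRCm38.p6, which matched 7 of the 10 genes. Correlations and promoters were computed in Python with pandas 2.3.3 and figures drawn with matplotlib 3.10.9.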

Additional observations from a re-analysis of the deposited data

Results flagged for a closer look

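Of 52 sets of values tested for a stray animal, 1 for each genotype of every probe set and comparison, 3 held one, and chance alone gives about 1 in 20. For Fgfr1 (1436551_at, a dim probe set), wild-type pup 5-1 was lowest at 4.11, with the next at 4.84. For Slc34a3 minus Slc5a2, knockout pup 5-2 was lowest at -3.94, with the next at -3.32, and without it the difference between genotypes was no longer called. For Kl minus the distal tubule marker mean, knockout pup 1-2 was lowest at -0.063, with the next at 0.48, and without it the change was -0.38 and still called (exact permutation adjusted p = 0.000622).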

How the results depend on the processing

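The falls of Slc34a1 (-0.76 to -0.55), Slc34a3 (-2.66 to -1.98) and Kl (-0.95 to -0.68) were called in all 38 alternatives. With signals as deposited, not normalized between arrays, 524 probe sets were called, 174 lower and 350 higher, or 66.8% higher against 53.8%. Then 3 members were called, without Slc20a1 (0.55) and Pth1r (-0.42). Males alone gave 1693 calls (708 lower, 985 higher), females 743 (315, 428), brighter arrays 1634 (790, 844) and dimmer arrays 1343 (521, 822). Pth1r was lost in males (-0.32). In these subsets few permutations exist, and with 4 animals in each group the smallest unadjusted p is 0.0286. Calls were lost, in females, for Slc34a3 minus Slc34a1 (-1.87), Slc34a3 (-1.81) and Pth1r (0.21) minus the proximal tubule mean, Kl minus the distal tubule mean (-0.68) and Slc20a1 minus Slc20a2 (0.47). In brighter arrays the same comparisons were lost, at -1.90, -1.81, 0.29, -0.57 and 0.53. In males, Pth1r minus the proximal tubule mean (0.48) and Kl minus the distal tubule mean (-0.27) were lost.

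Slc34a3 minus Slc5a2 turned to 0.035 with no floor. It was lost with sex as a term (-0.34), with brightness as a block (-0.32), in males (-0.34), females (-0.35), brighter (-0.35) and dimmer arrays (-0.30), and without wild-type arrays 2-1 and 2-2 (-0.27). With 1 array left out it was -0.41 to -0.25. Slc34a1 minus the proximal tubule mean became a call under the replicate block of first sample numbers (0.14), with brightness as a block (0.11) and in dimmer arrays (0.13), and was 0.11 to 0.17 with 1 array left out. Cyp24a1 minus Cyp27b1, never called, was 0.47 in dimmer arrays and -0.50 to 0.12 with 1 array left out, positive without knockout array 1-2 or 2-4 or wild-type array 3-1 or 5-1. In brighter arrays, uncalled signs turned for Slc20a1 1438824_at (-0.12), Slc20a2 1434235_at (-0.047), Fgfr1 1436551_at (0.055) and Cyp27b1 (0.018), and in dimmer arrays for Fgfr1 1425911_a_at (-0.0081). The causes were not tested.

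The values do not settle whether the first sample number pairs the animals. Deviations of wild-type and knockout animals of the same number correlated at -0.06 to 0.30, under 0.1 for 3 of 5 numbers. For number 5 the value was 0.30, against at most 0.06 with knockout animals of other numbers. For number 4 it was 0.16, against at most 0.29, and for number 3 -0.06, against a mean of 0.02. All arrays of numbers 4 and 5 were among the dimmer ones, and number 5 held only pups 5-1 and 5-2. For these numbers, pairing and array brightness cannot be told apart. As a replicate block the first sample number gave 3562 calls, against 2919 without it. All 5 called members were still called. Comparisons within arrays were not run with that block and sex together. The number of animals and the dim knockout signal of Slc34a3 limit the precision.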
